A study of Drosophila melanogaster with 6 samples.

Results

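The vacuolar proton ATPase genes were taken as every gene whose symbol starts with Vha, a rule that gave 33 of the 17737 genes in the count table. By the roles their names carry in Drosophila, 13 of the 33 code for subunits of the V1 sector, 18 for subunits of the V0 sector and 2 for accessory proteins. RNA-seq was performed on hand-picked PPL1-γ1pedc dopamine neurons, a cell type that innervates the mushroom body, of larvae at 120 h after egg laying. In the Stromalin KD group (n = 3) the ∆TH-D'-GAL4 driver expressed UAS-mCD8:GFP, UAS-dicer2 and UAS-Stromalin RNAi (KK), and in the control group (n = 3) the same driver expressed UAS-mCD8:GFP and UAS-dicer2 over a control (+) in place of the RNAi. Stromalin is a cohesin subunit whose knockdown is studied here in relation to synaptic vesicle pools. Each library was made from 25 GFP-positive neurons collected on a day of its own, and the knockdown was restricted to the cells in which the driver is active and rested on RNAi against Stromalin alone.

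The vacuolar ATPase is a rotary proton pump of synaptic vesicles, endosomes and lysosomes. Its cytosolic V1 sector hydrolyses ATP, and the rotation this drives in the membrane-embedded V0 sector carries protons into the lumen. In a dopamine neuron the resulting proton gradient is what the vesicular monoamine transporter exchanges for dopamine, so that vesicle filling depends on the pump. Flies carry several genes for many of the subunits, and for some of these subunits 1 gene is used broadly while the extra copies are known mainly from single tissues such as the testis.

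The libraries held 8638734 to 9624935 counts in genes in Stromalin KD and 7790921 to 9625056 in control, of which ribosomal RNA genes took 16.6% to 30.3%. At these depths the limit of 3 counts that an observed 0 allows corresponds to 0.312 to 0.385 CPM (counts scaled to library size), counting error only. The targeted gene, Stromalin (SA), had 3, 0 and 0 counts in Stromalin KD 1 to 3, against 0, 0 and 1372 in control 1 to 3, so that 2 of the 3 controls gave no check of the labels. The dopamine neuron genes ple, Vmat, DAT and Ddc and the neuronal genes elav, nSyb, brp and Syt1 had 10 counts or more in all 6 libraries. The glial genes repo and alrm, the 4 neuroblast genes dpn, ase, mira and wor, and the genes Gad1, ChAT, Tdc2 and Trh of other transmitter types were at 0 in all 6. Vesicular carriers of other transmitters did have reads. VGAT had 1762, 500 and 1737 counts in Stromalin KD and 112, 0 and 0 counts in control. VAChT and VGlut had 486 and 7 counts in Stromalin KD 3 and none in any other library. Of the 7 glial genes, 4 had reads in some libraries, and the list summed to 0 to 1617 counts in Stromalin KD and to 3 to 3824 in control. Most of these reads came from nrv2, with 1187, 728 and 0 counts in Stromalin KD and 3, 3824 and 0 counts in control. Fat body genes summed to 1 to 5686 counts in Stromalin KD and to 0 to 10970 in control, with the highest sum in control 2. The part of the glial, fat body and other transmitter reads in the values given here was not tested.

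Transcripts of the pump were abundant in these neurons, but came from a narrow set of its genes. Of the 33 genes, 18 had at least 1 count and 15 had none in any library. At least 10 counts in at least 2 libraries were reached by 16 genes, and 8 of these did so in all 6, namely Vha68-1, Vha55, Vha44, Vha26 and VhaSFD of V1, Vha100-1 and Vha16-1 of V0, and the accessory gene VhaAC45. Of the members with 10 counts anywhere, 50.0% were thus detected in all 6 libraries, whereas 16.3% of all 6127 genes with 10 counts anywhere were. The map of counts by gene and library shows both the constant rows and the rows that are on in some libraries and empty in others. In bulk samples such as these, fewer cells with a transcript and less RNA per cell cannot be told apart. An empty library also sets a limit on its own reads only and is not proof that the cells lacked the transcript.

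**Figure D1:**
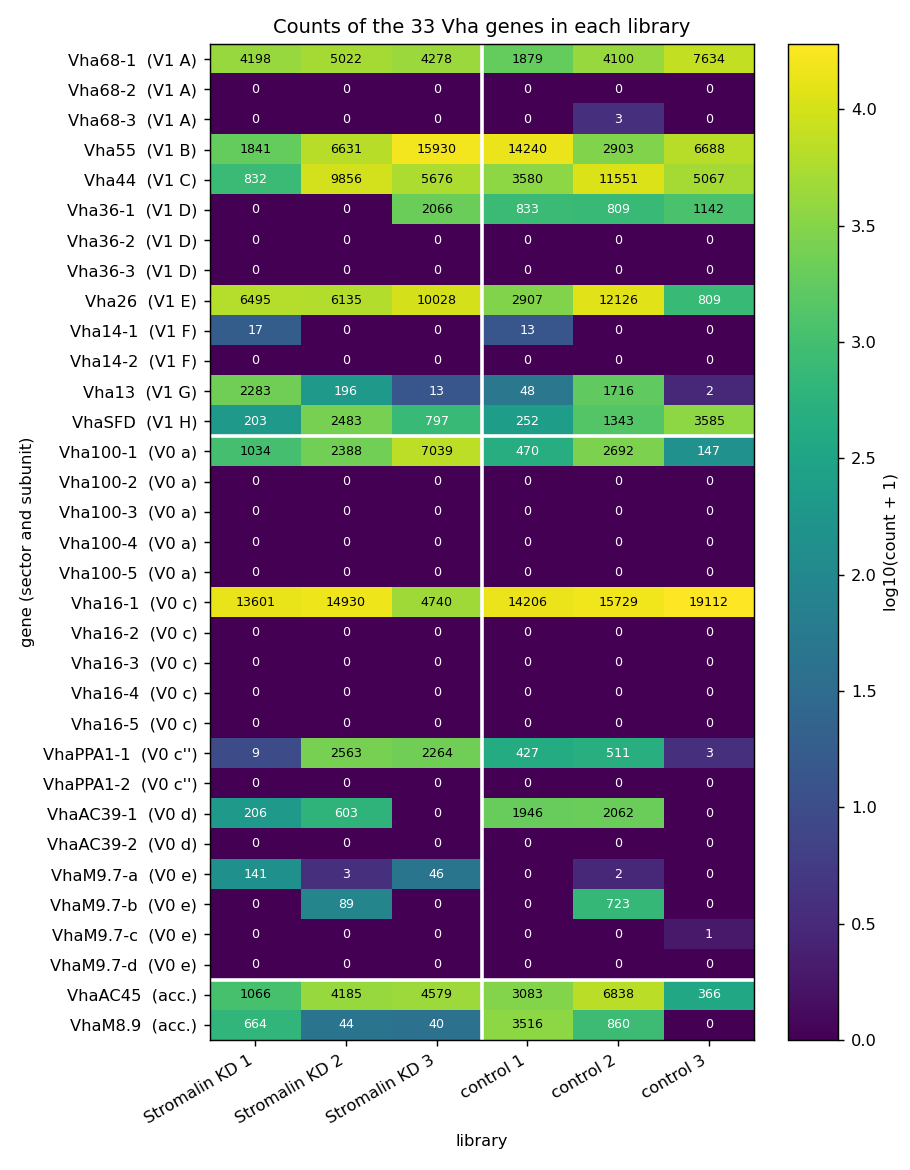
Raw counts of the 33 Vha genes (rows, by sector and subunit; acc., accessory) in the 3 Stromalin KD and 3 control libraries (columns). Colour gives log10(count + 1) and the printed number is the count. In it 8 rows are above 10 counts in every library and 15 rows are at 0 throughout.

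None of the 16 Vha genes that entered the test across all genes differed between Stromalin KD and control. By edgeR's quasi-likelihood test 0 of 16 had an adjusted p below 0.05 (Benjamini-Hochberg, adjusted p = 0.9996 for each of the 16), with 0.0489% of the 4093 genes tested called by the same rule. In this edgeR fit of all 6 libraries no member was below 0.05 without adjustment either, against 3.23% of all tested genes. DESeq2 called 0 of the 14 members to which it gave an adjusted p, where it called 5.46% of the genes tested, and 1 of the 17 with a p was below 0.05 before adjustment, where 9.67% of all genes with a p were. The members' standard errors ran from 0.70 to 5.01 on the log2 scale, so that only very large differences could have been resolved.

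Subunits A and B form the ring of V1 in which ATP is bound and hydrolysed, A holding the catalytic sites. Subunit A came from Vha68-1 (2L:13000770-13004107, minus strand of the BDGP6 annotation), at 473, 598 and 569 TPM (counts scaled by gene length and library size) in Stromalin KD 1 to 3 and at 227, 485 and 995 TPM in control 1 to 3. The KD values lay within the range of the controls. Its mean level was 547 ± 65.3 TPM in Stromalin KD and 569 ± 391 TPM in control (SD, n = 3 each), with a log2 fold change of -0.17 (SE 1.20). Subunit B has a single fly gene, Vha55 (3R:12623762-12627829, minus strand). It stood at 200, 759 and 2040 TPM in Stromalin KD and at 1650, 330 and 838 TPM in control, and each group held a library low and a library high for the gene. The highest library exceeded the lowest by 9.50 times in normalized CPM for Vha55 and by 3.79 times for Vha68-1, the steadiest of the 8 genes detected throughout. The log2 fold change of Vha55 was -0.19 (SE 0.88).

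The peripheral stalks that hold the V1 ring in place are built from E and G, and C joins them to the membrane sector. Vha26, the E subunit, was at 670, 669 and 1220 TPM in Stromalin KD, against 322, 1310 and 96.5 TPM in control. The 3 KD libraries fell inside the control range, and the log2 fold change was 0.59 (SE 1.05). Vha44, the C subunit, was at 62.4, 782 and 502 TPM in Stromalin KD and at 288, 909 and 440 TPM in control. Stromalin KD 1 was the lowest of the 6 libraries for this gene, and the groups overlapped (log2 fold change -0.40, SE 1.07). Of the 4023 annotated exon bases of Vha44, 148 are shared with Hmgs, whose reads the counting could have assigned to either. Vha13, the single G gene, varied far more than E or C. It had 2283, 196 and 13 counts in Stromalin KD, against 48, 1716 and 2 counts in control, with each group running from a high to a nearly empty library (log2 fold change 0.70, SE 3.40).

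The rotor of V1 consists of D and F, and H is known from yeast to silence V1 when it is detached from the membrane. Vha36-1, the D subunit (2R:15541435-15542498, plus strand), had 0, 0 and 2066 counts in Stromalin KD, whereas all 3 controls had it, at 833, 809 and 1142 counts. The single KD library with reads was nevertheless the highest of all 6, so that the groups overlapped and the log2 fold change was -0.48 (SE 3.04). Without Stromalin KD 3 the remaining KD libraries were both at 0. The fitted log2 fold change was then -12.99, which is no bound against 0 counts. By edgeR its p was 0.0423 before adjustment and 0.9998 after it. In limma the difference over all 6 libraries was -5.01 at log2(TPM + 1), with an adjusted p of 0.9994, and -7.22 at log2(TPM + 0.1), with an adjusted p of 0.9999. Vha14-1, the F subunit, was close to absent, with 17, 0 and 0 counts in Stromalin KD and 13, 0 and 0 counts in control. VhaSFD, the H subunit, was found in every library at 21.7, 280 and 100 TPM in Stromalin KD and at 28.8, 150 and 442 TPM in control. Both groups again had a library of low level, and its log2 fold change was -0.82 (SE 2.35).

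In the membrane sector, the ring of c subunits carries the protons. Its gene Vha16-1 (2R:6625242-6633090, minus strand) was the most abundant Vha gene, at 1330, 1550 and 548 TPM in Stromalin KD and at 1490, 1620 and 2170 TPM in control. Stromalin KD 3 was the lowest and control 3 the highest of the 6 libraries, while Stromalin KD 2 lay above control 1. The mean was 1140 ± 526 TPM in Stromalin KD and 1760 ± 358 TPM in control (SD, n = 3 each). Its log2 fold change of -0.75 (SE 0.70) was the most precisely measured of the 16, and the two-sided exact permutation test on normalized CPM gave p = 0.2, the smallest value that 3 against 3 libraries allow being 0.1. Subunit a holds the proton half-channels. It came from Vha100-1 (3R:29131193-29137980, plus strand), known in Drosophila as the a subunit of synaptic vesicles. Vha100-1 was at 94.9, 232 and 762 TPM in Stromalin KD, against 46.3, 259 and 15.6 TPM in control. The highest library was a knockdown and the lowest a control, but the middle values were interleaved (log2 fold change 1.79, SE 1.86).

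The remaining V0 subunits were found irregularly. VhaPPA1-1, the c'' member of the ring (3R:14902330-14904061, minus strand), had 9, 2563 and 2264 counts in Stromalin KD, against 427, 511 and 3 counts in control. It was strong in 2 of the 3 knockdown libraries, weaker in 2 controls and nearly empty in 1 library of each group (log2 fold change 2.25, SE 3.09). VhaAC39-1, the d subunit that couples the ring to the rotor (X:3880748-3882967, plus strand), had 206, 603 and 0 counts in Stromalin KD, against 1946, 2062 and 0 counts in control. Each group held 1 empty library, and the log2 fold change was -2.53 (SE 3.31).

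Subunit e, a small membrane protein, was the only subunit for which more than 1 gene was found at 10 counts. VhaM9.7-a (3L:4262705-4263464, plus strand) had 141, 3 and 46 counts in Stromalin KD, against 0, 2 and 0 counts in control. Its groups did not overlap, and it was the only such gene among the 16, where 6.62% of all tested genes did not overlap in one direction or the other. The 190 counts in Stromalin KD against 2 in control gave a ratio of summed CPM of 90.6 (95% exact interval 24.7 to 753, counting error only), but with the spread between libraries edgeR gave p = 0.194 and an adjusted p of 0.9996 at a fitted log2 fold change of 6.51 (SE 5.01), and the exact permutation test gave 0.1, the smallest it can. DESeq2 gave it an adjusted p of 0.181, and it was the member below 0.05 before adjustment in that tool. VhaM9.7-b had 0, 89 and 0 counts in Stromalin KD and 0, 723 and 0 counts in control, so that it was found in the libraries numbered 2 and in no other. In the 4 libraries where VhaM9.7-a or VhaM9.7-b was found, 1 of these genes held nearly all of the subunit, and the e level of control 3 was a single read of VhaM9.7-c. VhaM9.7-a made up 100%, 5.46% and 100% of the e subunit's TPM in Stromalin KD 1 to 3, against 0.471% in control 2, and the summed level of e was 60.0, 24.7 and 23.1 TPM in Stromalin KD and 0, 189 and 0.412 TPM in control.

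**Figure D2:**
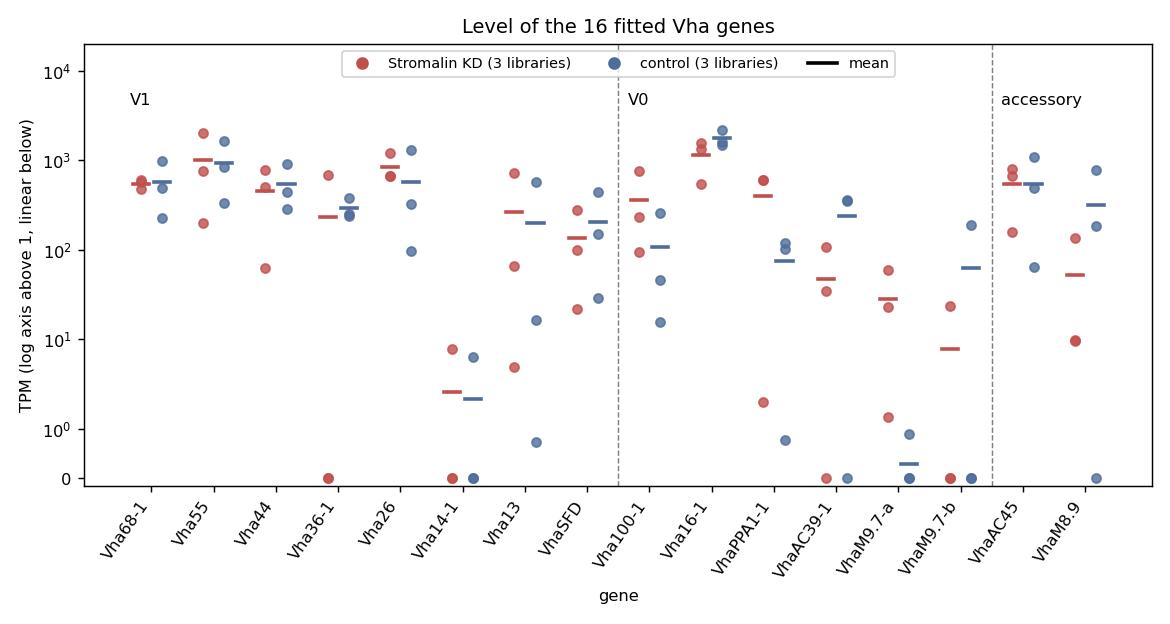
Level of the 16 fitted Vha genes in TPM (vertical axis, logarithmic above 1 and linear below), by gene; each point is 1 library of Stromalin KD (red, left) or control (blue, right) and the bar is the mean of 3. Vha16-1, Vha55, Vha26 and Vha68-1 lie high in both groups, and the smaller subunits spread down to 0.

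The accessory proteins aid assembly and sorting of the pump. VhaAC45, the fly counterpart of ATP6AP1, was at 160, 663 and 810 TPM in Stromalin KD and at 496, 1080 and 63.5 TPM in control. Its means of 544 ± 341 TPM in Stromalin KD and 545 ± 508 TPM in control (SD, n = 3 each) were nearly equal, with a log2 fold change of -0.09 (SE 1.46). VhaM8.9, which the annotation names ATP6AP2 (3R:9260638-9262590, plus strand), had 664, 44 and 40 counts in Stromalin KD, against 3516, 860 and 0 counts in control. Of the controls, 2 were above every KD library and the remaining one was empty, at a log2 fold change of -2.76 (SE 3.09).

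A gene outside the rule was named after its values had been seen. CG31030 (3R:30164692-30166419, minus strand) is called VhaAC45RP in the annotation, for its relation to VhaAC45, and is known in Drosophila as a neuronal protein bound to the pump. It had 1680, 2350 and 1248 counts in Stromalin KD, against 0, 40 and 27 counts in control. All 3 KD libraries were above all 3 controls, at 192 ± 39.5 CPM in Stromalin KD and 2.50 ± 2.17 CPM in control (SD, n = 3 each). Groups without overlap, in one direction or the other, were found for 6.62% of all tested genes. The log2 fold change was 6.26 (SE 3.86) with an adjusted p of 0.9996 by edgeR, and DESeq2 gave an adjusted p of 0.125, so that the difference did not pass either test across genes. As the gene was picked for this pattern, its values are a description.

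Placed on the length-corrected TPM scale, the fitted members covered a wide range of levels. Vha16-1 ranked 47 among the 6922 genes with counts by mean TPM over the 6 libraries (1450 TPM), followed by Vha55 at rank 69, Vha26 at 98, Vha68-1 at 139, VhaAC45 at 148 and Vha44 at 165. At the other end Vha14-1 ranked 5480 with a mean of 2.36 TPM. Neighbours in this order could not be separated, since SDs within a group were often near or above the mean. For example, Vha26 was at 853 ± 318 TPM in Stromalin KD and at 577 ± 647 TPM in control. Vha16-1 was the leading member in 4 libraries and Vha55 in Stromalin KD 3 and control 1. Together the members took 0.607 ± 0.196% of all TPM in Stromalin KD and 0.644 ± 0.124% in control (SD, n = 3 each).

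V1 and V0 were compared by their summed TPM. V1 summed to 2166, 3155 and 5123 TPM in Stromalin KD and to 2796, 4005 and 3187 TPM in control. V0 summed to 1526, 2516 and 1929 TPM in Stromalin KD and to 1994, 2552 and 2185 TPM in control, below V1 in each of the 6 libraries. The V1 sum ran over 8 subunits and the V0 sum over 5, and neither was divided by the number of subunits. A lower V0 sum is therefore not a lower level per subunit. The ratio of V0 to V1 was 0.705, 0.798 and 0.377 in Stromalin KD, against 0.713, 0.637 and 0.686 in control. The controls lay close together and Stromalin KD 3 stood below all the others, giving means of 0.626 ± 0.221 in Stromalin KD and 0.679 ± 0.0385 in control. Without Stromalin KD 3 the mean was 0.751 in Stromalin KD, above that of the controls, so that the order of the groups rested on this library. No test was made of these sums, because the members had been chosen with results of these data known.

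The V0 sum rested largely on Vha16-1. Its share of V0 was 87.4%, 61.5% and 28.4% in Stromalin KD and 74.9%, 63.5% and 99.2% in control. With Vha16-1 left out, a calculation added after the data were seen, the ratio of V0 to V1 was 0.0885, 0.307 and 0.27 in Stromalin KD, against 0.179, 0.233 and 0.00527 in control. The order of the group means then turned, to 0.222 ± 0.117 in Stromalin KD and 0.139 ± 0.119 in control. Control 3 contributed the lowest value and the groups overlapped. The median TPM over subunits in place of the sum gave the same turned order, at 0.670 in Stromalin KD and 0.354 in control.

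Subunits were also counted by presence. Of the 8 V1 subunits, 7, 6 and 7 had a gene with 10 counts in Stromalin KD 1 to 3, against 8, 7 and 6 in control 1 to 3. The missing ones were D or F in the knockdown libraries and F or G in the controls. Of the 5 V0 subunits, 4, 5 and 4 were found in Stromalin KD and 4, 5 and 2 in control. Stromalin KD 1 lacked c'' and Stromalin KD 3 lacked d, whereas control 1 lacked e and control 3 lacked c'', d and e. Counts were below 10 for 3 of the 16 fitted members in each knockdown library, against 2 in control 1, 2 in control 2 and 7 in control 3. No library thus held every subunit of both sectors. The total number of genes with 10 counts was lowest in Stromalin KD 3 and control 3, at 2352 and 2298, and highest in control 2, at 4004.

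**Figure D3:**
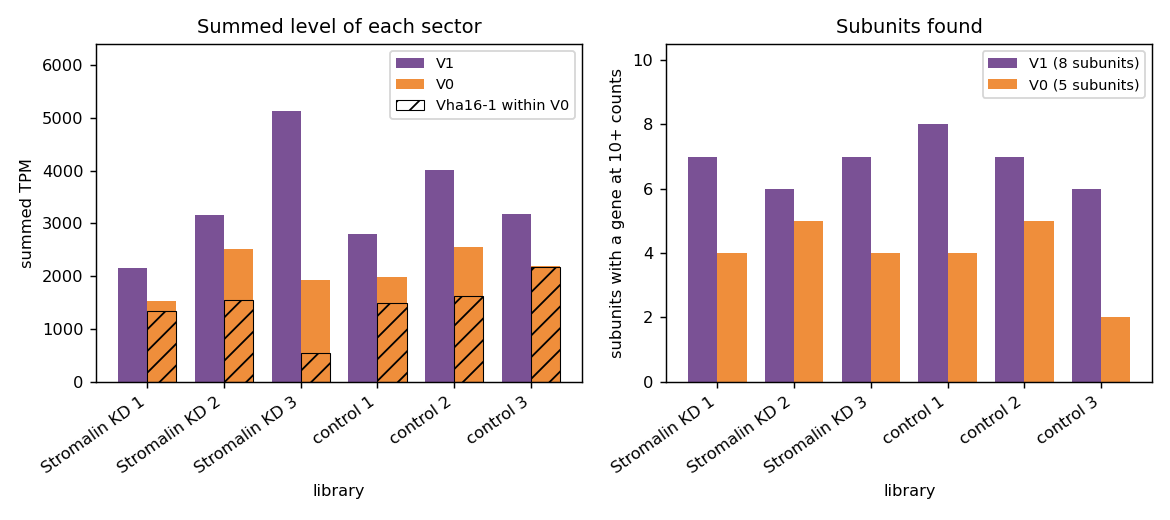
Left, summed TPM of the V1 and V0 genes in each library, with the part of V0 that is Vha16-1 hatched; right, number of V1 subunits (of 8) and V0 subunits (of 5) with a gene at 10 counts or more. The V1 sum, taken over more subunits, exceeds the V0 sum in every library, and control 3 has 2 V0 subunits, nearly all of its V0 sum being Vha16-1.

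Paralogs of a subunit were used very unequally. Subunits A, D, F, a, c, c'', d and e each have 2 to 5 genes, and in all of these but e a single gene held 99.9% to 100% of the subunit's TPM in every library where the subunit was found. These genes were Vha68-1, Vha36-1, Vha14-1, Vha100-1, Vha16-1, VhaPPA1-1 and VhaAC39-1. At 0 counts in all 6 libraries were Vha68-2, Vha36-2, Vha36-3, Vha14-2, Vha100-2, Vha100-3, Vha100-4, Vha100-5, Vha16-2, Vha16-3, Vha16-4, Vha16-5, VhaPPA1-2, VhaAC39-2 and VhaM9.7-d. Vha68-3 and VhaM9.7-c had 3 counts and 1 count in all, both in controls. Reads that match several paralogs equally could have been dropped or split by the counting, for which no source used here gives the setting, so that a count of 0 is not proof that a gene was silent.

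The absence of Vha68-2 stood out in this list, since in Drosophila it is the A subunit gene studied most widely, while Vha68-1 had 27111 counts over the 6 libraries. Both lie on 2L, separated by 22162 bases, and Vha68-2 is followed after 178 bases by Vha68-3. Other close pairs were Vha100-2 with Vha100-4, 517 bases apart on 3R, and Vha16-2 with Vha16-3, 985 bases apart on 3L, all 4 of them at 0. VhaPPA1-2 lies 2052 bases from VhaPPA1-1 and was at 0 while its neighbour had 5777 counts. Over the whole family, 6 members lie on 2L, 8 on 2R, 5 on 3L, 12 on 3R and 2 on X, of which 2, 5, 2, 6 and 1 entered the fit.

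Detection went with gene length among the 16 fitted members. The 8 genes found in all 6 libraries have 2013 to 4023 annotated exon bases (median 2877.5), and the 8 found in 2 to 5 libraries have 659 to 1792 (median 1140), with no overlap between the sets. Over all genes the direction was the same, with median exon lengths of 5665 bases for genes found in all 6 libraries and 2862 bases for those found in 2 to 5. Detection of the fitted members also went with level. Mean TPM was 171 to 1450 in those found in all 6 libraries and 2.36 to 260 in the others, and these ranges overlapped. The parts of length and level in detection were not tested. The 17 members outside the fit have 494 to 3222 exon bases with a median of 1294, against 1902.5 over the 16 fitted members, and include long genes such as Vha68-3 with 2445, Vha68-2 with 2759 and Vha100-2 with 3222. By median exon bases the fitted V0 genes are shorter than the fitted V1 genes, at 1572 over the 6 V0 genes and 2731.5 over the 8 V1 genes. This difference moved with detection, as 2 of the 6 fitted V0 genes and 5 of the 8 fitted V1 genes were found in every library, and its part in the comparison of sectors was not tested.

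**Figure D4:**
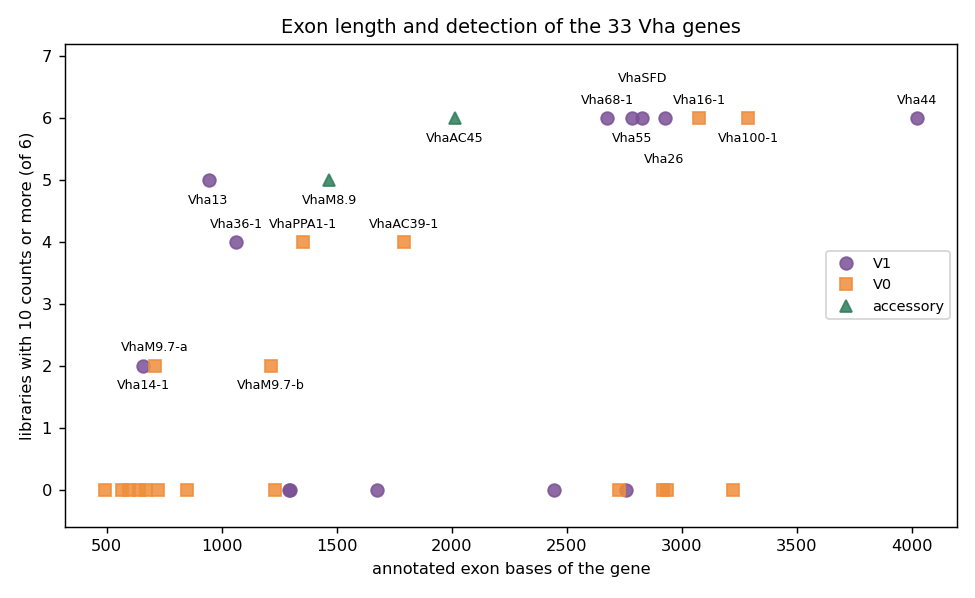
Number of libraries (of 6) with 10 counts or more against annotated exon bases for the 33 Vha genes, by sector; the 16 fitted genes are named. Genes found in 6 libraries all have 2013 exon bases or more, those found in 2 to 5 have 1792 or fewer, and genes that did not reach 10 counts span short and long lengths.

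The fold changes had the same division. The size of the log2 fold change had a median of 0.50 in the 8 genes found throughout and of 2.39 in the 8 found in part, compared with 0.67 over the 1001 genes found in all 6 libraries and 1.59 over all 4093 genes tested. The standard error ran from 0.70 to 2.35 in the 8 genes found throughout and from 3.04 to 5.01 in the others. The highest library exceeded the lowest by a median of 11.5 times in normalized CPM over the 8 genes and by 15.5 times over the 1001 genes.

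By sector, the log2 fold change was above 0 for 3 and below 0 for 5 of the 8 fitted V1 genes, with a median of -0.18. It was above 0 for 3 and below 0 for 3 of the 6 V0 genes, with a median of 0.52, and below 0 for both accessory genes. Over all 16 members the median was -0.18, with 6 above and 10 below 0, beside a median of 0.07 over all genes tested. All bars in the plot of fold changes except those of Vha16-1, VhaM9.7-a and CG31030 reach 0 within 1 SE. The V1 genes showed the narrowest range, -0.82 to 0.70, and the V0 genes ran from -3.01 to 6.51.

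**Figure D5:**
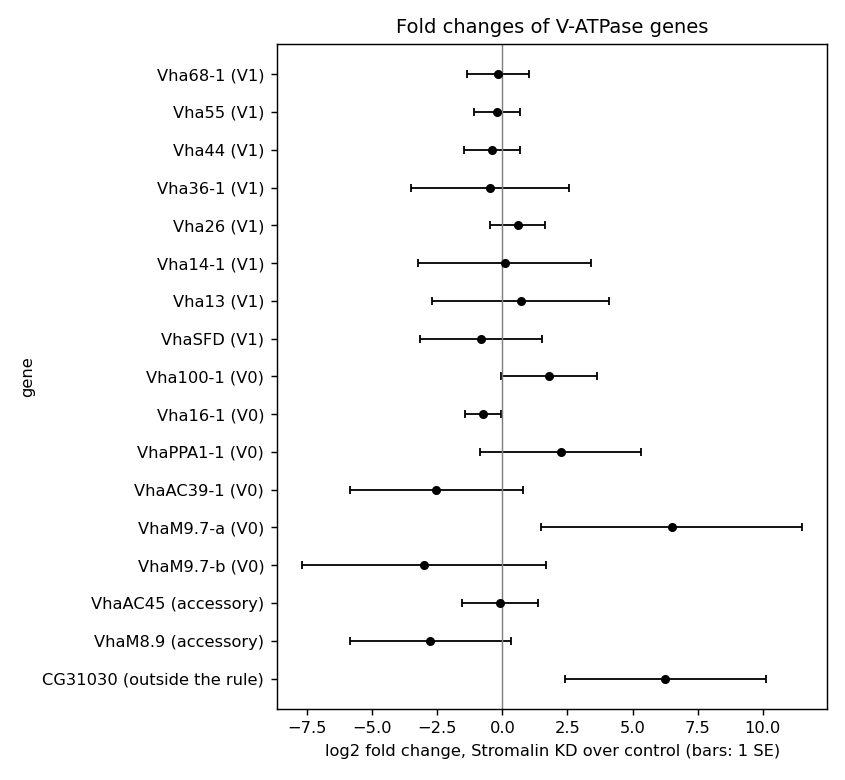
Log2 fold change of Stromalin KD over control (horizontal axis, edgeR, bars 1 SE) for the 16 fitted Vha genes and for CG31030, which the rule does not include. The V1 genes lie between -0.82 and 0.70, and no gene passed the test across all genes.

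Genes that work with the pump were examined as lists. Of 7 matched assembly and regulation genes, 5 were fitted, 2 above and 3 below 0 with a median log2 fold change of -0.35, and 0 passed the adjusted threshold. Rbcn-3A, a rabconnectin needed to assemble the pump, had 184, 1653 and 1946 counts in Stromalin KD, against 659, 5174 and 17977 counts in control. The groups overlapped, and the log2 fold change of -2.83 (SE 1.24), the largest in size of this list, had an adjusted p of 0.8095 by edgeR. The other fitted genes of the list were Rbcn-3B at -0.67 (SE 2.82), SkpA at -0.35 (SE 2.5), mtd at 0.62 (SE 0.9) and CG5969 at 0.77 (SE 3.63). Of the 7 carriers driven by the proton gradient, 4 were fitted, 2 above and 2 below 0 with a median of 0.42, and none was called. Vmat, the vesicular monoamine transporter, was the most precisely measured gene of this group, with a log2 fold change of -0.02 (SE 0.15). VGAT, the carrier for GABA, had 1762, 500 and 1737 counts in Stromalin KD, against 112, 0 and 0 counts in control. Its groups did not overlap, which held for 6.62% of all tested genes in one direction or the other. The log2 fold change was 4.86 (SE 3.92), with an adjusted p of 0.9996 by edgeR.

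Of the 19 lysosomal genes, whose products work in the lumen the pump acidifies or in its membrane, 8 were fitted. Of these, 2 were above and 6 below 0, with a median log2 fold change of -0.55 against 0.07 over all genes tested, and none was called. The counts of the list summed to 2656 to 4793 in the KD libraries and to 7451 to 10669 in the controls. These are raw counts, not scaled to library size, and their separation was complete only with CG12163. This cathepsin-like protease had 89, 2 and 0 counts in Stromalin KD and 524, 0 and 6197 counts in control. Without it, a sum added after the data were seen, the list came to 4704, 3800 and 2656 counts in Stromalin KD and to 7139, 7451 and 4472 counts in control, and the groups overlapped. cathD, the aspartic protease cathepsin D, had 1, 104 and 125 counts in Stromalin KD, against 674, 1374 and 1960 counts in control. Its groups did not overlap, as for 6.62% of all tested genes in one direction or the other. The log2 fold change of -4.26 (SE 3.70) had an adjusted p of 0.9996 by edgeR.

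The mitochondrial ATP synthase, a rotary enzyme of related build that makes ATP, served for comparison. Of its 16 genes 15 had at least 1 count and 4 had 10 counts in all 6 libraries, beside 18 of 33 and 8 of 33 for the vacuolar pump. These shares are not like for like. The vacuolar set took in every gene of the name, extra paralogs included, whereas the ATP synthase list was named gene by gene. The fit included 12 of the 16, 5 above and 7 below 0 with a median log2 fold change of -0.17, and none was called. Within it, as within the vacuolar pump, genes of 1 enzyme were found in different libraries. ATPsynC, the c subunit, had 4037 to 7086 counts in Stromalin KD and 3953 to 10037 in control, whereas ATPsynG did not exceed 10 counts in any library.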

How the data were processed

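RNA-seq libraries (NuGEN Ovation SoLo, with ribosomal RNA depletion) were made from 25 PPL1-γ1pedc neurons each, 3 of Stromalin KD and 3 of control. Per the labels the authors used HTSeq 0.9.1, DESeq2 and the BDGP6 build. Aligner, strand setting and any molecular identifiers were not given in the sources used here, so antisense or overlapping reads could not be separated. The deposited counts are raw reads per gene, and the deposited normalized signal is those counts divided by 1 size factor per library. The deposited TPM values divide counts by a gene length. Taken relative to Vha55, this length was in proportion to the annotated exon bases within 2 percent for 16 of 16 fitted members. The 16 include Vha55 itself, for which the match was fixed in advance. The authors' own comparison table (fold changes and p-values) was not used.

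The main test was edgeR 4.0.16 (quasi-likelihood, TMM factors, two-sided) in R 4.3.3 on genes that reached 10 counts in 2 or more of the 6 libraries, with Benjamini-Hochberg adjustment over all 4093 and a threshold of 0.05. Group values are mean ± SD, and an SE is the log2 fold change over the square root of F. Levels of different genes were compared in TPM alone. Alternatives were DESeq2 1.42.0, limma 3.58.1 on log2(TPM + 1) and log2(TPM + 0.1), other scalings and filters, a replicate block, and each library left out. The scripts were tested on simulated data with far less spread between libraries than these, so that test does not measure their sensitivity here. Every Vha gene was accounted for, with values per library where it reached 10 counts. Gene positions are from the BDGP6.54 annotation, matched by identifier except Vha44 (by symbol). Members and lists were chosen with earlier results of these data known. Promoter and protein sequences were not analysed here. Numbers in the labels name replicates, and each library had its own collection day.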

Additional observations from a re-analysis of the deposited data

How the results depend on the processing

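No Vha gene was called under any alternative run. Over all genes, edgeR called 2, but 0 with TMMwsp factors, total counts only, ribosomal RNA genes left out, or filters of 10 counts in 3 or in all 6 libraries, and 1 with no filter beyond 1 count. Where 0 were called, including without Stromalin KD 2, edgeR gave 35 to 143 genes at an unadjusted p below 0.05. DESeq2 called 160 genes, and limma called 4 with either pseudocount. Leaving out 1 library at a time gave 0 to 3. The cause of these differences was not tested. The replicate block called 1 gene and 0 members. Deviations of same-numbered libraries correlated at -0.0202, -0.00977 and 0.0246, within the range of -0.0287 to 0.0385 for differently numbered ones. No pairing by number was seen, though with 3 libraries per group a small shared effect could be missed.

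Of the 16 members, 8 kept their sign in every alternative, and 25 of 255 member alternatives turned it. The log2 fold change of Vha68-1 was 0.07 under the replicate block and 0.18 and 0.19 in limma with pseudocounts of 1 and 0.1. That of Vha14-1 was -0.07 with RLE factors, -0.01 with TMMwsp and -0.08 in DESeq2. For VhaAC45 it was 0.08 with TMMwsp, 0.06 under the replicate block, and 0.44 and 0.45 in limma. With 1 library left out, values ran from -0.50 to 0.58 for Vha68-1, -1.31 to 0.67 for Vha55, -0.92 to 0.15 for Vha44, -12.99 to 0.15 for Vha36-1, -0.56 to 0.66 for Vha14-1, -2.43 to 4.67 for Vha13, -1.73 to 0.54 for VhaSFD and -0.61 to 0.53 for VhaAC45. Vha36-1 was at -10.19 under the replicate block and -5.01 and -7.22 in limma. Over all alternatives, wide ranges of 1 sign were -5.45 to -0.05 for VhaM8.9, 3.61 to 8.96 for VhaM9.7-a and -3.60 to -0.99 for VhaM9.7-b.

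The V0 to V1 ratio from normalized counts was 0.662 in Stromalin KD and 0.706 in control, and with 1 library left out it was 0.541 to 0.751 in Stromalin KD and 0.661 to 0.699 in control. The ratio without the highest V0 and V1 genes was 0.316 in Stromalin KD and 0.233 in control. Without Vha16-1 alone it was 0.222 in Stromalin KD and 0.139 in control, and by the median over subunits it was 0.670 in Stromalin KD and 0.354 in control. Detection in all 6 libraries held for 8 members at 100 counts and 10 members at 1 count. With 25 cells a library and a common coefficient of variation of 228% between libraries, the data limit the size of change that could be called, and a 0 in a library sets a limit on that library's reads only.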
